A study of Drosophila melanogaster with 12 samples.

Results

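The regions described here are the parts of the fly genome where ORC2 binding sites were packed most closely in 2nd instar larval fat body. The arms 2L, 2R, 3L and 3R and the X were divided into 2651 fixed windows of 50 kb, starting at the first base of each arm. Every merged ORC2 region of the 2nd instar list was assigned to a window by its midpoint, and a merged region joins the overlapping or neighbouring MACS2 peaks of both replicates. The 378 windows with 4 or more regions, 14.3% of all windows and 18.9 Mb of 132 Mb, are called dense windows below. Dense windows that touch each other formed 266 zones. Since the windows were chosen by their 2nd instar region counts, those counts are a description and carry no test.

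ORC2 is a subunit of the origin recognition complex, the protein assembly that binds chromosomes and loads the replicative helicase, and so marks where DNA replication can begin. The larval fat body is the metabolic and storage organ of the insect, with functions shared by liver and adipose tissue. Its cells enlarge during larval life by endocycles, in which the genome is copied again and again without cell division, and the chromosomes become polytene. In flies no fixed DNA sequence specifies where the complex binds, and binding is commonly found at open chromatin near active genes.

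The samples came from wild-type OregonR males, from which the fat body was dissected and the testes removed. Pools of 60 to 120 larvae were taken at 3 stages. These were the 2nd instar (67 to 68 h after egg laying), the mid-3rd instar (91 to 92 h) and the late-3rd instar (wandering larvae). The study's methods give 120 larvae at 2nd instar and 60 at each later stage, so pool size differed with stage. Chromatin was fixed with formaldehyde and immunoprecipitated with an antibody against ORC2, with 2 ORC2 libraries and 2 input libraries per stage and 12 libraries in all. The lists hold positions of peaks and no expression values, so the tissue could not be checked against its marker genes. They give no read numbers, so the depth of each library is unknown. All positions are given in Release 6 of the genome.

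On all chromosomes the lists held 4239 merged regions at 2nd instar, 2053 in mid-3rd and 706 in late-3rd instar. The peaks called in replicates 1 and 2 numbered 4277 and 3831 at 2nd instar, 930 and 1994 at mid-3rd instar, and 370 and 500 at late-3rd instar. The later lists are therefore shorter and rest on fewer peaks, and 52.9%, 28.3% and 12.9% of regions at the 3 stages had peaks of both replicates.

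Most of the genome held few ORC2 regions at 2nd instar. No region lay in 1085 windows, 1 in 575, 2 in 378 and 3 in 235. Just inside the threshold, 147 windows held 4 regions, 89 held 5 and 73 held 6. The number then fell quickly, to 30 windows with 7 regions, 20 with 8, 9 with 9 and 10 with 10 or more, and the highest count was 12. Dense windows held 5.37 ± 1.58 regions on average (SD over 378 windows), and together they held 2029 of 4065 regions (49.9%). Neighbouring regions within a dense window were separated by a median of 3.78 kb (quartiles 1.95 and 8.27 kb).

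**Figure D1:**
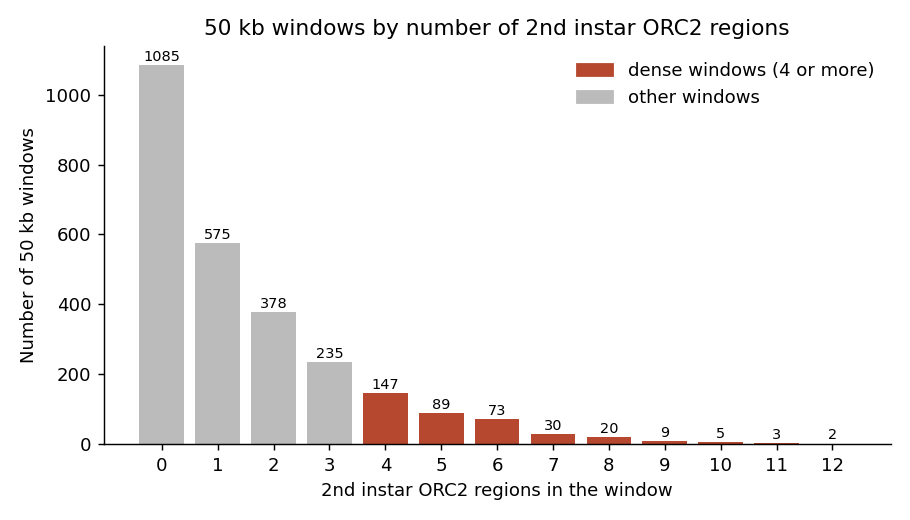
Number of 50 kb windows (y axis) with each count of 2nd instar ORC2 regions (x axis), over 2L, 2R, 3L, 3R and X. The 378 dense windows, with 4 or more regions, are drawn in red and form the tail of a distribution in which 1085 windows held none.

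Windows chosen with 1 replicate of the 2nd instar held more peaks of the other replicate than the rest did. Both replicates entered the merged list that defined the dense windows, so this is a description and carries no test. The 289 windows with at least 4 regions that hold a replicate 1 peak had 5.45 ± 3.35 peaks of replicate 2 per window, against 0.888 ± 1.35 in the rest (SD over windows), 6.14 times as many. In the other direction, the 204 windows chosen with replicate 2 had 6.70 ± 3.19 peaks of replicate 1 against 1.11 ± 1.59, 6.05 times as many. Both replicates chose 163 windows, of the 289 chosen with replicate 1 and the 204 chosen with replicate 2. Regions supported by both replicates made up 56.4% of the regions in dense windows and 49.9% of those in other windows.

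Dense windows were spread unevenly over the arms. They made up 97 of 471 windows on 2L (20.6%), 96 of 561 on 3L (17.1%), 78 of 506 on 2R (15.4%) and 84 of 642 on 3R (13.1%). The X, present once in these males, had 23 of 471 (4.88%). Of the 2 Mb next to the centromere, 13 of 203 windows were dense (6.40%), and none of 40 on 3R. Of the 2 Mb at the other end of the arms, 34 of 202 were dense (16.8%), including 11 of 40 on 2L and 11 of 40 on 3L but 2 of 41 on 3R.

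Most dense windows stood alone. There were 191 zones of a single window, 54 of 2 windows and 15 of 3, and 6 zones were longer. The longest zone ran over 9 windows (450 kb) on 2L from 21100001 to 21550000, with 63 regions, and ended in the histone gene array. The next ran over 7 windows on 2L from 10200001 to 10550000 with 45 regions. The other 3 of the 5 longest lay on 2L from 1 to 250000 (37 regions), on 2L from 5050001 to 5300000 (26 regions) and on 2R from 16100001 to 16300000 (21 regions).

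Places dense in ORC2 at 2nd instar were also where ORC2 was found later. At least 1 mid-3rd instar region lay in 324 of 378 dense windows (85.7%, 95% Wilson interval 81.8 to 88.9), against 765 of 2273 other windows (33.7%) and 41.1% of all windows. At late-3rd instar 184 dense windows held a region (48.7%, 43.7 to 53.7), against 239 others (10.5%) and 16% of all windows. The share of dense windows was 48.9% without mid-3rd instar replicate 2, against 16.4% of other windows, and 37.8% and 26.2% without late-3rd instar replicates 1 and 2. These intervals treat windows as independent, which neighbours are not, and cover counting error only. Both later stages had a region in 171 dense windows, the mid-3rd instar alone in 153 and the late-3rd instar alone in 13. No later region was found in 41 dense windows (10.8%), against 57% of all windows.

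Few windows were still dense by the same threshold. At mid-3rd instar 63 dense windows held 4 or more regions (16.7%), as did 14 other windows, against 2.9% of all windows. At late-3rd instar 15 did (3.97%), as did 1 other window, against 0.604% of all windows. The mean count per dense window was 2.16 ± 1.76 in mid-3rd and 0.873 ± 1.32 in late-3rd instar (SD over 378 windows). More regions than at 2nd instar were counted at mid-3rd instar in 4 of 378 dense windows and in 186 of all 2651 windows. At late-3rd instar this held for 1 dense window and for 24 of all windows. Windows chosen for a high count at 1 stage tend to have lower counts at any other, and this fall was not tested.

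**Figure D2:**
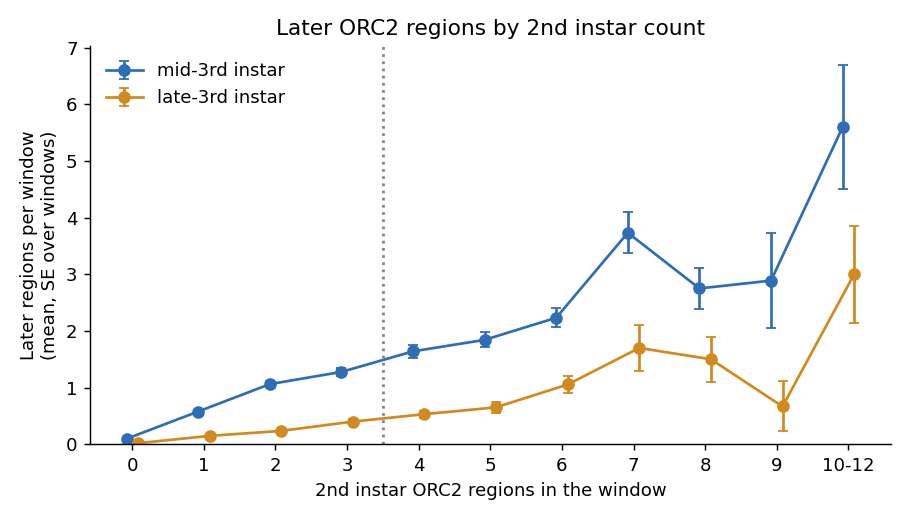
Mean number of mid-3rd instar (blue) and late-3rd instar (orange) ORC2 regions per 50 kb window (y axis, error bars are the standard error over windows) against the number of 2nd instar regions in the window (x axis). The error bars treat windows as independent, which neighbours are not, and do not show the spread between libraries. The dotted line marks the threshold for dense windows. The means were 1.28 and 0.4 at a count of 3, 1.64 and 0.531 at a count of 4, and 5.6 and 3 in the 10 windows with 10 or more.

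The later counts rose with the 2nd instar count without a step at the threshold. Windows with 3 regions, just outside, held 1.28 ± 1.03 mid-3rd instar and 0.4 ± 0.681 late-3rd instar regions. Windows with 4, just inside, held 1.64 ± 1.43 and 0.531 ± 0.761. The 30 windows with 7 regions held 3.73 ± 1.98 and 1.7 ± 2.18, and all of them had a mid-3rd instar region. The rise was not even, since the 20 windows with 8 regions held 2.75 ± 1.65 and 1.5 ± 1.76, fewer than those with 7.

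Per unit length, the density of later peaks was compared between dense and other windows in each library, since no later library took part in the choice. In mid-3rd instar replicates 1 and 2 the dense windows held 2.11 and 4.38 peaks per 100 kb and other windows 0.418 and 0.933, ratios of 5.04 and 4.70. In late-3rd instar replicates 1 and 2 the ratios were 8.64 and 6.13. The mean ratio was 4.87 ± 0.243 in mid-3rd and 7.39 ± 1.78 in late-3rd instar (SD, n = 2 libraries each). All 4 libraries were denser in dense windows, and the difference averaged 2.90 times the density of the library. An exact two-sided sign-flip permutation test over the 4 libraries gave p = 0.12, the smallest it allows, and 0.375 after Benjamini-Hochberg adjustment over 3 tests.

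**Figure D3:**
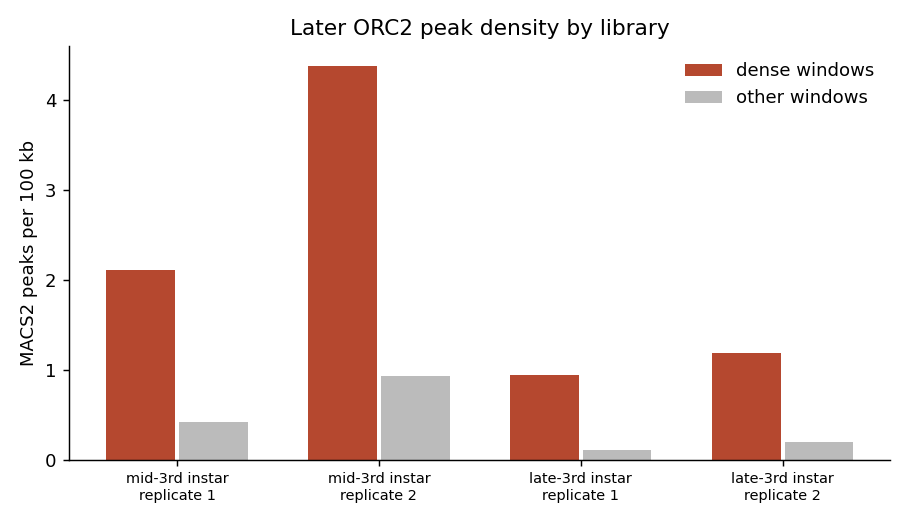
MACS2 peaks per 100 kb (y axis) in dense windows (red) and other windows (grey) for each of the 4 later ORC2 libraries (x axis). In every library the bar of the dense windows is higher, with ratios from 4.70 in mid-3rd instar replicate 2 to 8.64 in late-3rd instar replicate 1.

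The share of each later list that lay in dense windows was compared next. Dense windows held 817 of 1954 mid-3rd instar regions (41.8%, 39.6 to 44.0) and 330 of 618 late-3rd instar regions (53.4%, 49.5 to 57.3) on 14.2% of the length. By library, 45.6% and 43.8% of the mid-3rd instar peaks and 58.9% and 50.5% of the late-3rd instar peaks lay in them. Both late libraries were above both mid-3rd instar libraries, by 9.98 points on average. With 2 libraries against 2, a two-sided exact permutation test yielded p = 0.33, the smallest it allows, and 0.5 after adjustment. Among high-confidence peaks, those with an irreproducible discovery rate (IDR) under 0.1 between replicates, 399 of 761 2nd instar, 129 of 288 mid-3rd instar and 28 of 53 late-3rd instar peaks lay in dense windows. The 2nd instar libraries chose these windows, so the 2nd instar number is a description that follows from the choice.

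Single binding sites were then followed. With 1 kb as the largest distance, 722 of 2029 regions in dense windows (35.6%) and 765 of 2036 in other windows (37.6%) had a mid-3rd instar region, against 36.6% of all. A late-3rd instar region was found for 269 (13.3%) and 207 (10.2%), against 11.7% of all. Later regions were denser in dense windows, at 4.33 against 1.00 per 100 kb at mid-3rd and 1.75 against 0.254 at late-3rd instar. A later region within 1 kb by position alone is therefore likelier there, and the shares were not corrected for it. By library, dense and other windows gave 15.3% and 18.3% in mid-3rd instar replicate 1, and 32.3% and 32.4% in replicate 2. In late-3rd instar replicate 1 they gave 5.82% and 2.85%, and in replicate 2 9.66% and 8.74%. The differences, dense minus other, were -2.94 and -0.0853 points at mid-3rd instar and 2.97 and 0.917 points at late-3rd instar. Their mean was 0.214 points, with p = 0.875 in the exact two-sided sign-flip permutation test over 4 libraries (0.875 after adjustment). The mean changed sign without either late-3rd instar library, to -0.704 points without replicate 1 and -0.0206 without replicate 2. The direction also depended on how dense windows were defined, since all 4 libraries had the higher share in dense windows when these were chosen by 2 or more regions with peaks of both replicates (3.72 points) or as 100 kb windows with 8 or more regions (2.46 points). The mid-3rd instar shares rested on replicate 2, as the values by library show.

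**Figure D4:**
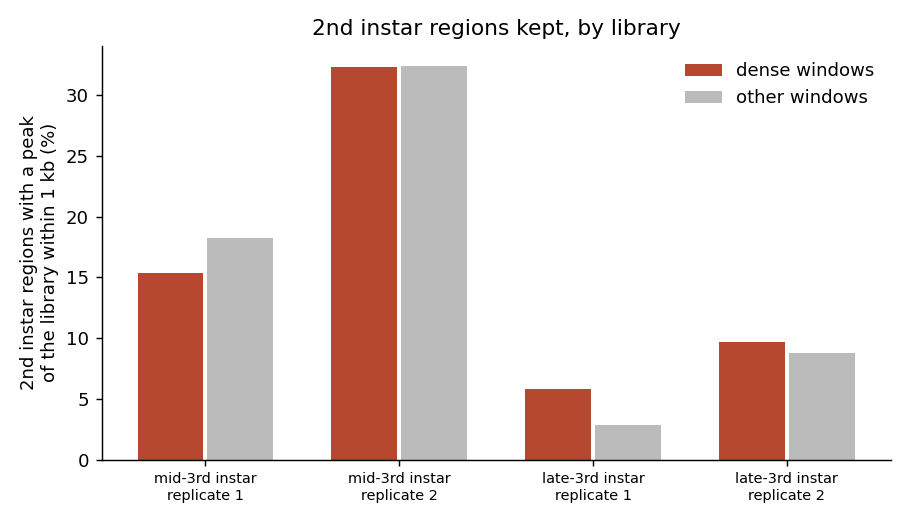
Percent of 2nd instar ORC2 regions with a peak of the library within 1 kb (y axis), for regions in dense windows (red) and other windows (grey), in each later library (x axis). The pairs of bars differ by at most 2.97 points, whereas the libraries of the mid-3rd instar differ from each other by more, at 15.3% and 32.3% in dense windows.

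Over a distance of 5 kb all 4 libraries had the higher share in dense windows, by 7.18 points on average. Neighbouring 2nd instar regions within a window lay a median of 3.78 kb apart in dense and 7.04 kb in other windows. A distance of 5 kb can therefore reach the later region of a neighbouring site, so these shares do not follow single sites. For the merged lists the shares were 55.3% in dense and 45.9% in other windows for mid-3rd instar and 24.5% against 13.8% for late-3rd instar. In the reverse direction, 713 of 817 mid-3rd instar regions in dense windows (87.3%) and 272 of 330 late-3rd instar regions (82.4%) had a 2nd instar region within 1 kb. In other windows these shares were 67.6% and 70.8%. Dense windows were chosen for holding more 2nd instar regions. A higher reverse share in them therefore follows at least in part from the choice, and was not tested. Regions seen in both 2nd instar replicates were found again more often than those seen in 1, at 47.0% and 20.8% for mid-3rd instar in dense windows and 19.4% and 5.31% for late-3rd instar.

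Dense windows were rich in genes. They held 10.4 ± 7.10 annotated genes each (SD over 378 windows, median 10), against 6.0 ± 5.09 (median 5) in other windows, and 3934 of 17570 genes (22.4%) had their midpoint in one. Annotated genes covered 79.3% of the sequence of dense windows and 67.8% of that of other windows. Genes of 20 kb or more covered less of it, at 29.5% against 40.4%. Only 9 dense windows (2.38%) held no gene midpoint, against 252 others (11.1%).

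Within dense windows, regions lay less often at the ends of genes than elsewhere. A gene end was within 1 kb of 1132 of 2029 regions (55.8%, 53.6 to 57.9), against 1296 of 2036 in other windows (63.7%, 61.5 to 65.7). Regions in dense windows had their midpoint inside a gene more often (72.4% against 64.6%), and inside a gene of 20 kb or more (28.5% against 23.7%). Genes also covered more of dense windows, and both shares inside any gene were below that coverage (79.3% and 67.8%). Genes of 20 kb or more covered 29.5% of dense and 40.4% of other windows. The differences between regions were not tested, since regions of a window are not independent. The gene table gives no strand, so starts and ends of genes were not told apart.

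Later density was higher in dense windows in every class of gene number. The share of windows that were dense rose from 5.07% of those with 0 to 2 genes to 35.4% of those with 16 or more. Among windows with 0 to 2 genes, dense ones held 8.31 times as many mid-3rd instar and 8.60 times as many late-3rd instar regions per window as other windows. Among those with 9 to 11 genes the ratios were 3.29 and 5.18. They were lowest among those with 12 to 15 genes, at 1.83 and 3.43, and were 2.94 and 6.62 among those with 16 or more. These classes of gene number were chosen after the data were seen.

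The gene lists differed widely in how many of their genes lay in dense windows, against 22.4% of all genes. All 111 histone genes did, since they form a single array that fell into 3 dense windows. Transfer RNA genes, which RNA polymerase III transcribes, gave 112 of 295 (38.0%) in 35 windows, and 35 dense windows (9.26%) held a tRNA gene midpoint against 89 others (3.92%). Genes of the response to ecdysone, the steroid that drives molting and metamorphosis, numbered 6 of 12 (50%). Genes of fat body storage and secreted proteins numbered 4 of 11 and antimicrobial peptide genes 7 of 20, of which 6 lay in 1 window.

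Other lists lay closer to the share of all genes or below it. Cytoplasmic ribosomal protein genes gave 22 of 85 (25.9%), proteasome subunits 11 of 48 (22.9%), and genes of glue and Eig71E proteins of other larval tissues 5 of 18. Markers of the testis, which was removed at dissection, gave 8 of 27. Replication proteins gave 5 of 26 (19.2%), namely Orc5, a subunit of the same complex as ORC2, Mcm10, which acts as the helicase is activated, Prim2 of the primase, the cell cycle transcription factor E2f1 and SuUR, a factor of underreplication. Cuticle proteins gave 21 of 120 (17.5%), chemosensory receptors 17 of 185 (9.19%) and the homeotic genes, which specify body segments, 0 of 8. Many lists hold genes that lie side by side and share a window, so their counts are not independent.

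**Figure D5:**
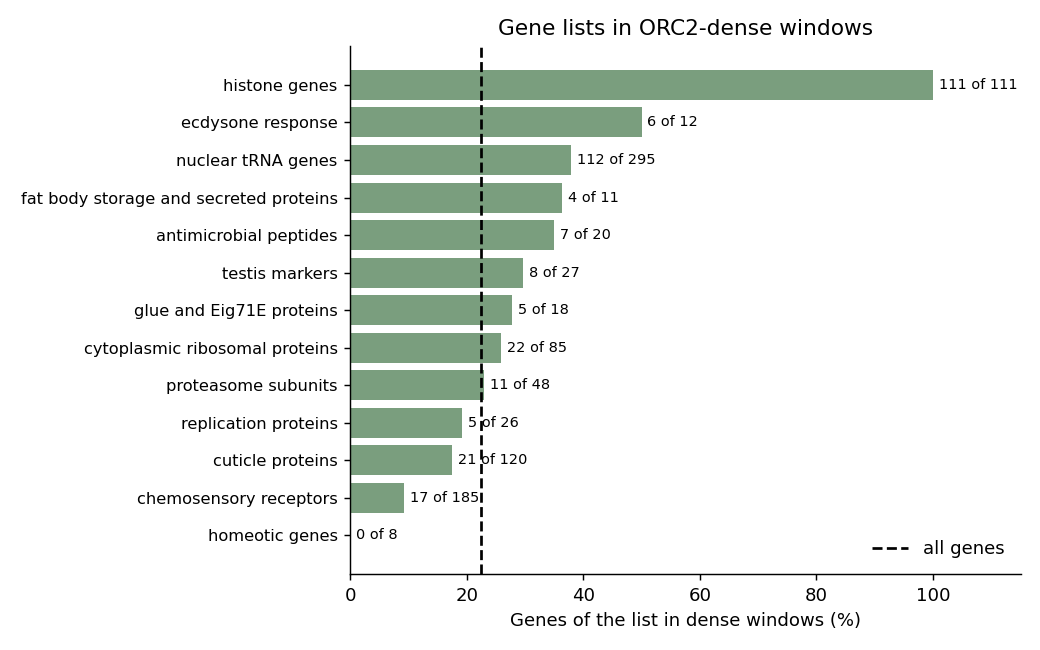
Percent of the genes of each list whose midpoint lies in a dense window (x axis), with the numbers beside the bars. The dashed line marks 22.4% of all genes. Histone, ecdysone response and tRNA genes are above the line and chemosensory receptors and homeotic genes below it.

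The histone array on 2L was among the densest places. Its windows from 21450001 and from 21500001 held 12 and 11 regions at 2nd instar, 11 and 11 at mid-3rd instar, and 4 and 1 at late-3rd instar. In the first of them replicates 1 and 2 had 18 and 14 peaks at 2nd instar, 22 and 20 at mid-3rd instar, and 2 and 2 at late-3rd instar. In the second they had 13 and 17, then 23 and 18, then 0 and 1. Both replicates thus had more peaks at mid-3rd instar than at 2nd instar in each of these windows, and few at the end of larval life. Of the 111 histone genes, all had a region within 1 kb at 2nd instar, against 30.8% of all genes. Their windows were chosen for their 2nd instar regions, so this 2nd instar share is a description. All 111 genes still had a region within 1 kb in mid-3rd instar, against 17.8% of all genes. In late-3rd instar 20 had one (18.0%), against 4.48% of all genes. Histone genes encode the proteins that package newly copied DNA. Copies of the array are nearly identical, so the position of a read among them is uncertain.

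The rest of that zone held single-copy genes. They include Hr39, a nuclear receptor induced by ecdysone, Mondo, a sugar-responsive transcription factor, and crc, the fly homologue of the stress factor ATF4. Over its 9 windows the zone had 63 regions at 2nd instar, 43 in mid-3rd and 18 in late-3rd instar. The window from 21100001 on its outer edge had 5, 2 and 5, and all its late-3rd instar peaks came from replicate 1, with none in replicate 2.

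Ribosomal RNA genes gave other windows of repeated sequence. The window on the X from 23200001, at ribosomal RNA pseudogenes, held 7 regions at 2nd instar, 8 in mid-3rd and 7 in late-3rd instar. Its replicates had 7 and 7, 9 and 7, and 8 and 7 peaks at the 3 stages. It did not lose peaks with stage and held 6 of the 28 late-3rd instar high-confidence peaks found in dense windows. The 5S ribosomal RNA array on 2R, in the window from 19700001 with 72 genes, went the other way from most, with 4 regions at 2nd instar, 10 in mid-3rd and 2 in late-3rd instar. Replicates 1 and 2 there had 3 and 5 peaks at 2nd instar and 16 and 10 at mid-3rd instar. Of the dense windows, 7 hold histone, ribosomal RNA or 5S array genes, and without windows of these arrays the later density ratios were 4.13 and 6.55.

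A further window stood out because the gene table places no gene in it. It lies on 2R from 3950001 and had 9 regions at 2nd instar, all with peaks of both replicates. All 9 had a mid-3rd instar region within 1 kb, with 9 peaks in each mid-3rd instar replicate, and no peak was called at late-3rd instar.

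The ecdysone receptor gene EcR lay largely in a pair of neighbouring dense windows on 2R. The window from 6150001, with the end of EcR and 17 tRNA genes, held 10 regions at 2nd instar, 5 in mid-3rd and 8 in late-3rd instar. Its replicates had 14 and 10 peaks, then 2 and 5, then 5 and 4, so the replicates of the later stages overlapped. The region from 6150970 to 6153943, over EcR and 3 Asn tRNA genes, had a region within 1 kb at both later stages.

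Over the whole of EcR (81.2 kb) 13 regions were counted at 2nd instar, 7 in mid-3rd and 5 in late-3rd instar. Eip75B, a nuclear receptor gene induced early by ecdysone (114 kb), had 12, 6 and 4. The gene of ftz-f1, a nuclear receptor of the prepupal response (50.7 kb), had 7, 2 and 0. Hr39, Eip78C and MsrA, listed under its older name Eip71CD, were the other ecdysone genes in dense windows, with 4, 4 and 10 regions in their windows at 2nd instar. MsrA had no later region within 1 kb.

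Some long genes carried a run of ORC2 regions. Of 1025 genes of 20 kb or more, 102 contained 4 or more 2nd instar regions, and in 57 all of these lay in dense windows. A gene with that many regions tends to make its window dense by the rule. Genes that overlap each other, such as sky and CG43739, count the same regions more than once. The genes named in this and the next paragraph were chosen after their counts were seen, since the rule for names covered windows. The gene with the most was bun, which encodes TSC-22 family growth regulators (91.1 kb), with 18 regions at 2nd instar, 8 in mid-3rd and 9 in late-3rd instar. Replicates 1 and 2 had 35 and 35 peaks in bun, then 3 and 7, then 6 and 5. SNF4Agamma, a subunit of the energy sensor AMP-activated kinase (73.5 kb), had 10, 7 and 7 regions. Pdp1, a clock and growth transcription factor (55.9 kb), had 9, 6 and 2.

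Some other long genes, with 7 to 9 regions at 2nd instar, had few or none later. A late-3rd instar count of 0 was not particular to those named here, since nuf, ftz-f1 and tai, with 7 regions each, also had 0. CG46385, with 7 regions and 14 and 10 peaks in replicates 1 and 2, had no peak in any later library. CG9380, also with 7 regions, had 5 in mid-3rd and 4 in late-3rd instar. The insulin receptor gene InR (49.1 kb, 3R) had 9 regions at 2nd instar, with 16 and 10 peaks in replicates 1 and 2, and no peak in any later library. The insulin pathway transcription factor foxo (31.0 kb, 3R) had 7 regions, with 9 and 9 peaks, then 1 region from a single peak at mid-3rd instar and none at late-3rd instar. The gene sky (47.6 kb, 2L), a regulator of vesicle traffic, had 9, 1 and 0. The nuclear envelope protein gene Msp300 (106 kb, 2L) had 9, 2 and 1. The gene chinmo (53.4 kb, 2L), a transcription factor of the larval state, had 8, 2 and 0. InR and SNF4Agamma, with 9 and 10 regions at 2nd instar, thus had 0 and 7 at late-3rd instar.

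The 10 windows with the most 2nd instar regions also differed in the number of later regions they held. The window on 2R from 16800001, with Ugt37C1 and 7 long noncoding RNA genes, had 12 regions, then 2 and 2. The window on 2L from 100001, with Sam-S, which makes the methyl donor S-adenosylmethionine, had 11, 3 and 0. The window on 3L from 18800001, with catalase (Cat) and Indy, a citrate transporter of the fat body and gut, had 11, 8 and 2. These 3 windows held 16 and 20, 13 and 13, and 11 and 11 peaks of replicates 1 and 2 at 2nd instar.

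The others in that set had 10 regions each. The window on 2L from 12450001, within bun, held 7 regions at each later stage. The window on 3L from 8050001, with Sarm and 6 tRNA genes, held 3 and 3 later regions, and that on 3L from 15500001, with MsrA and gdl, held 4 and 3. The window on 2R from 19400001, with hts, an adducin of the membrane skeleton, held 2 and 0.

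Windows of genes typical of the fat body were not alike. The window on 3L from 50001, with the larval serum protein gene Lsp1gamma, had 7 regions at 2nd instar, 5 in mid-3rd and 8 in late-3rd instar, the only dense window with more at late-3rd than at 2nd instar. Its replicates had 9 and 6 peaks, then 1 and 5, then 7 and 4. Genes covered only 16.3% of this window. The 2nd instar regions from 64769 and 68512 overlapped Lsp1gamma. That from 93671 to 97619 overlapped no gene and held 4 and 3 peaks of replicates 1 and 2. It had a region within 1 kb at both later stages, as had that from 64769. The counts are therefore of the window and not of Lsp1gamma alone. Larval serum proteins are the amino acid stores that the fat body secretes in the 3rd instar. Lsp2 had 5, 2 and 2 regions in its window, with the later peaks all from replicate 2. The window of Lsp1beta had 4, 3 and 0, but the gene runs past its end and had a late-3rd instar region within 1 kb. Mtp, which loads lipid onto lipoproteins, had 4, 0 and 0.

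The window on 3R from 21150001, inside SNF4Agamma, had 8, 6 and 7 regions. Together with the EcR, bun, Lsp1gamma and ribosomal RNA windows it made up the 5 dense windows with most late-3rd instar regions. Late-3rd instar regions outnumbered mid-3rd instar regions in 32 of 378 dense windows, against 82 of all 2651 windows.

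At the other extreme were windows with many 2nd instar regions and none later. The window on 3L from 3300001 had 9 regions, 4 of them in both replicates, and holds ZnT63C, a zinc transporter, and the 6 Drosomycin-like peptide genes Drsl1 to Drsl6. Only Drsl1 and Drsl6 of these had a region within 1 kb. The window on 2R from 18800001 had 8 regions, of which 2 had peaks of both replicates. The window on 3L from 12050001, with the semaphorin gene Sema5c, had 6 regions, all with peaks of both replicates, and 9 and 13 peaks in replicates 1 and 2. The windows on 2L from 13100001 and on 3L from 20300001, the latter with the mitotic kinase gene polo, had 6 each.

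The longest zones also differed in their later counts. The 7 windows on 2L from 10200001 had 45 regions at 2nd instar, 31 in mid-3rd and 14 in late-3rd instar. They lie in a stretch of short genes that includes Npc1a for sterol transport, the proteasome gene Prosalpha6, the kinase gene bsk, RpS27A and the fatty acid transporter gene Fatp1. Npc1a and Prosalpha6 had a region within 1 kb at all 3 stages, bsk and RpS27A at 2nd and mid-3rd instar, and Fatp1 at 2nd instar alone.

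The zone at the tip of 2L, with l(2)gl, spen and kis, had 37, 14 and 15 regions. The zone on 2L from 5050001, which contains Msp300, the receptor gene tkv and a group of Cyp4ac and Cyp28d cytochrome P450 genes, had 26, 11 and 1. The zone on 2R from 16100001, with Rho1, spin, Lis-1 and the kinesin gene Khc, had 21, 4 and 1. These last 2 zones held a single late-3rd instar region each, from 1 peak of replicate 2 in the former and 1 peak of each replicate in the latter.

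By arm, the later density ratios between dense and other windows covered a narrow range. At mid-3rd instar they ran from 3.96 on 3R to 4.63 on 3L, with 4.13 on the X. At late-3rd instar they ran from 5.81 on 3L to 7.40 on the X. On the X only 19 of 69 late-3rd instar regions lay in dense windows.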

How the data were processed

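Binding of ORC2 was analysed from the 6 ChIP-seq peak lists that the authors deposited, a merged and a high-confidence list per stage. The authors aligned paired-end reads of 40 nt with Bowtie2, called peaks per replicate against input with MACS2 at a q-value of 0.05 and merged them. Positions in bp were used as deposited. The high-confidence lists give the IDR of each peak, a fraction that the authors computed between replicates and kept under 0.1. No peak heights were used here. The labels and methods name dm3, but positions match Release 6: 72.5% of the 761 high-confidence 2nd instar peaks on the arms lay within 1 kb of a Release 6 gene end, against 42.0% after a shift of 2000 bp. Genes came from the RefSeq table of that release, and no genome sequence was used.

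Peaks per library were counted from the replicate named with each peak. Only later libraries entered tests, which were exact permutations over libraries, adjusted by Benjamini-Hochberg over 3 tests. Windows named were the 10 with most 2nd instar regions, the 5 with most regions at each later stage, up to 5 with 6 or more regions and none later, and the 5 longest zones. Genes named in them had an end within 1 kb of a region with peaks of both replicates or of a high-confidence peak, or belonged to the gene lists. Other genes were chosen after their values were seen. The rule for dense windows and the gene lists were chosen with earlier results of these data known. The study's methods call the replicates biological. Depth is unknown, so intervals cover counting only. Alternatives were window size and offset, the threshold, replicates, arrays, high-confidence peaks, the distance and the genes counted. Counting and matching were tested on simulated positions. The analysis ran in Python 3.11.15 with pandas 2.3.3, numpy 2.4.6, statsmodels 0.14.6 and matplotlib 3.10.9.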

Additional observations from a re-analysis of the deposited data

Results flagged for a closer look

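The difference between dense and other windows in the share of 2nd instar regions found again within 1 kb had opposite signs at the later stages. It was negative in both mid-3rd instar libraries (-2.94 and -0.0853 points) and positive in both late-3rd instar libraries (2.97 and 0.917 points), a difference of 3.46 points between stages. The exact two-sided permutation test of that difference gave p = 0.33, the smallest that 2 libraries against 2 allow. The shares were not corrected for the higher density of later regions in dense windows.

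Chromosome 4 was not among the arms divided into windows above. It held 157 regions at 2nd instar, and 20 of its 27 windows of 50 kb (74.1%) had 4 or more, against 14.3% on the larger arms. The later lists held 91 and 80 regions there. The Y had 16 regions at 2nd instar, then 7 and 8, and no window with 4 or more. No control sample of the lists gives a background for either chromosome.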

How the results depend on the processing

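Density in dense windows was above that in other windows under every alternative run. The number of dense windows was 380 with windows shifted by 25 kb, 613 with a threshold of 3 regions, 231 with a threshold of 5, and 129 with windows of 100 kb and a threshold of 8. Leaving out replicate 2 or replicate 1 of the 2nd instar gave 289 and 204. The mid-3rd instar density ratio was 3.68 with windows of 100 kb and 4.88 with high-confidence peaks. Without late-3rd instar replicate 1 or 2 the late ratio was 5.93 or 8.76. Among windows with 12 to 15 genes, an alternative chosen after seeing the data, the ratios were 1.83 and 3.43. Without the X, also chosen then, they were 4.36 and 6.73. The mean difference in the share of regions found again turned negative with a threshold of 3 (-0.0665 points), without array windows (-0.877) and with direct overlap (-0.664). It was positive in all 4 libraries with regions of both replicates (3.72 points), with 100 kb windows (2.46), within 5 kb (7.18) and without 2nd instar replicate 1 (4.12), and ranged from -0.704 to 4.12 points when single replicates were left out. The cause was not tested. With the replicate number as a replicate block, chosen after seeing the data, late-3rd minus mid-3rd instar differences in the share of peaks in dense windows were 13.4 and 6.60 points in replicates 1 and 2 (mean 9.98, exact sign-flip p = 0.5, the smallest that 2 pairs allow). Nothing in the labels says that the numbers pair the samples. Depth is unknown, so a site missing from a later list may be below detection. With 4 or fewer libraries, no permutation test here could pass 0.05.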
